A study of Rattus norvegicus with 8 samples.

Results

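Aggrecan (Acan) and versican (Vcan) are large chondroitin sulfate proteoglycans of the lectican family. They bind hyaluronan, a long unsulfated sugar polymer that the synthases Has1, Has2 and Has3 extrude at the cell surface, and the link proteins Hapln1 and Hapln3 stabilise this bond. In the intervertebral disc such aggregates hold water and carry compressive load, and aggrecan is known to be richer in the nucleus pulposus and inner annulus than in the outer annulus. Cd44 is a cell surface receptor for hyaluronan, and Hyal1 and Hyal2 are hyaluronidases. These 10 genes were chosen by symbol, and each had a single row among the 31699 rows of the deposited table.

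RNA-seq was performed on AFCs, cells of the annulus fibrosus, the fibrous outer ring of the disc. They came from male Sprague Dawley rats (3 months of age in the study), with the tissue of 8 rats pooled for each isolation and digested with collagenase and hyaluronidase. The AFCs received a lentivirus with the empty hairpin vector pLVX-shRNA-Puro (Lv-Ctrl) or with the same vector carrying a short hairpin RNA against Piezo1, a mechanically gated cation channel (Lv-Piezo1), at a multiplicity of infection of 20 for 24 h. All 8 samples, 4 of each label and described by the study as biological repeats, were then under cyclic mechanical stretch (CMS) of 20% elongation at 0.5 Hz for 36 h, so the comparison is between vectors in stretched cells, and unstretched cells were not analysed here. Levels are given as TPM, a unit corrected for transcript length that sums to a fixed total. Sequencing depth cannot be read from it and is unknown, and precision rests on the spread over 4 samples.

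The transcript level of the hairpin's target went against the label. Piezo1 (ENSRNOG00000056786) measured 31.1, 33.0, 26.7 and 29.5 TPM in samples 1 to 4 with the label Lv-Ctrl and 38.1, 37.7, 40.2 and 41.4 TPM in those labelled Lv-Piezo1. It was thus higher in every sample labelled as its knockdown (log2 fold change 0.38, standard error 0.06, limma adjusted p = 8.6e-04). Relative to the median of all tested genes this was 0.24, and after median-ratio scaling 0.22 (adjusted p = 0.0028). Groups are therefore named by their labels, and every direction below runs from the label Lv-Ctrl to the label Lv-Piezo1, with this limit.

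The samples also differed in overall scale. Rows above 0 TPM numbered 16645 to 17022 in the samples labelled Lv-Ctrl and 17191 to 17657 in those labelled Lv-Piezo1, and genes whose symbol begins with Mt- held 6.87% to 7.74% and 5.69% to 6.16% of the TPM. The median log2 fold change of the 13103 tested genes was 0.14. Median-ratio scaling, which sets a common factor per sample, moved it by 0.15 to -0.0046. Replicate 3 labelled Lv-Ctrl had the lowest factor, 0.897, against 0.945 to 0.970 in the other Lv-Ctrl samples and 1.04 to 1.09 in the samples labelled Lv-Piezo1. The part of this shift in the gene results was not tested, and the changes of the 8 tested genes of the group are also given relative to the median of all tested genes.

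Within this gene group, aggrecan, Hapln3 and Hyal2 transcripts rose and versican and Hapln1 transcripts fell, all with a log2 fold change under 1 in size, and Hapln3 no longer passed after median-ratio scaling. The groups were compared with limma on log2(TPM + 1), where the added 1 shrinks changes of genes with low TPM, over the genes with a mean of at least 1 TPM. Of the 10 genes, 8 were tested and 2, Has1 and Has3, lay below that limit. At an adjusted p below 0.05 together with a log2 fold change of at least 1 in size, limma called 0 of the 8, while 7.67% of all tested genes passed (4.91% higher and 2.76% lower). With the adjusted p alone 5 of the 8 passed, 3 higher and 2 lower, beside 58.2% of all tested genes (41.9% higher and 16.3% lower), and 7 of the 8 had an unadjusted p below 0.05, beside 62.3% of all tested genes. The groups did not overlap for 5 of the 8, beside 54.2% of all tested genes. With so few genes, these shares do not stand out from those of all tested genes. The median log2 fold change was -0.16 for the 8 genes and 0.14 for all tested genes. After median-ratio scaling it was -0.31, and 6 of the 8 passed the adjusted p, 2 higher and 4 lower, beside 55.8% of all tested genes (27.9% higher and 27.9% lower). Among all genes past both thresholds, the share that was higher went from 64.1% to 52.3% with this scaling and to 48.8% with quantile normalization.

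Acan (ENSRNOG00000028992), the core protein of the large aggregating proteoglycan of cartilage and disc, stood at 33.8, 33.3, 27.3 and 31.8 TPM in Lv-Ctrl replicates 1 to 4. The matching values with the label Lv-Piezo1 were 45.5, 45.6, 48.6 and 48.9 TPM. The highest Lv-Ctrl value lay well below the lowest Lv-Piezo1 value, and replicate 3 was the low sample of its group. The mean rose by 49.4%, from 31.6 ± 2.95 to 47.1 ± 1.82 TPM (SD, n = 4 each). Its log2 fold change was 0.57 (standard error 0.07, limma adjusted p = 8.7e-05), which is 0.43 above the median of all tested genes, and 0.41 after median-ratio scaling (adjusted p = 9.0e-05).

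Vcan (ENSRNOG00000029212), the lectican of loose and provisional matrix, moved the other way. It measured 15.9, 16.2, 14.1 and 14.8 TPM in Lv-Ctrl samples and 11.4, 10.3, 12.4 and 11.4 TPM in those labelled Lv-Piezo1. All 4 samples labelled Lv-Piezo1 lay below all 4 labelled Lv-Ctrl. The mean went from 15.2 ± 0.964 to 11.4 ± 0.870 TPM (SD, n = 4 each). On the log2 scale this was -0.39 (standard error 0.07, limma adjusted p = 8.4e-04). Relative to the median of all tested genes this was -0.53. In bulk RNA, fewer cells that express a gene and less of its RNA per cell cannot be told apart, here and for every gene that follows.

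Because the lecticans moved in opposite directions, the ratio of versican to aggrecan TPM within a sample separated the groups. It was 0.470, 0.486, 0.516 and 0.465 in the samples labelled Lv-Ctrl and 0.250, 0.226, 0.256 and 0.233 in those labelled Lv-Piezo1, with means of 0.484 ± 0.0230 and 0.241 ± 0.0140 (SD, n = 4 each). A ratio within a sample does not depend on a common factor for that sample. Replicate 3 labelled Lv-Ctrl, low for both genes, had the highest ratio of its group.

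Hapln1 (ENSRNOG00000032002), the cartilage link protein, stood at 12.1, 10.9, 9.38 and 10.3 TPM in Lv-Ctrl replicates 1 to 4, and at 7.58, 7.74, 7.86 and 7.74 TPM in those labelled Lv-Piezo1. The Lv-Piezo1 values were nearly alike and all lay below the Lv-Ctrl values, which spread more widely. The mean went from 10.7 ± 1.16 to 7.73 ± 0.115 TPM (SD, n = 4 each), with a log2 fold change of -0.41 (standard error 0.07, limma adjusted p = 0.0011), or -0.55 relative to the median of all tested genes.

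Hapln3 (ENSRNOG00000022321), a link protein expressed in many tissues, was the more abundant of the pair. Its level was 116, 117, 95.9 and 113 TPM in Lv-Ctrl samples and 130.2, 120.0, 131 and 145 TPM in those labelled Lv-Piezo1. The groups did not overlap, but the gap between them was small, with replicate 2 of Lv-Ctrl at 117 TPM and replicate 2 of Lv-Piezo1 at 120.0 TPM. The mean went from 111 ± 9.93 to 132 ± 10.3 TPM (SD, n = 4 each). The log2 fold change was 0.25 (standard error 0.08, limma adjusted p = 0.019). This call ended with median-ratio scaling (log2 fold change 0.09, adjusted p = 0.21) and without replicate 4 labelled Lv-Piezo1 (log2 fold change 0.20, adjusted p = 0.050), and relative to the median of all tested genes the change was 0.11.

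The balance of link proteins therefore differed between the groups. Hapln1 made 0.0965 ± 0.00640 of the Hapln3 level in the samples labelled Lv-Ctrl and 0.0590 ± 0.00460 in those labelled Lv-Piezo1 (ratio of TPM, SD, n = 4 each), with no overlap. Against aggrecan, Hapln1 went from 0.338 ± 0.0167 to 0.164 ± 0.00497, also with no overlap. A ratio added after the values were seen, that of Hapln1 to Vcan, was 0.698 ± 0.0453 and 0.682 ± 0.0497, and there the groups overlapped. The ratio of Hapln3 to Acan, also added then, was 3.51 ± 0.0593 and 2.79 ± 0.154, with no overlap.

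**Figure D1:**
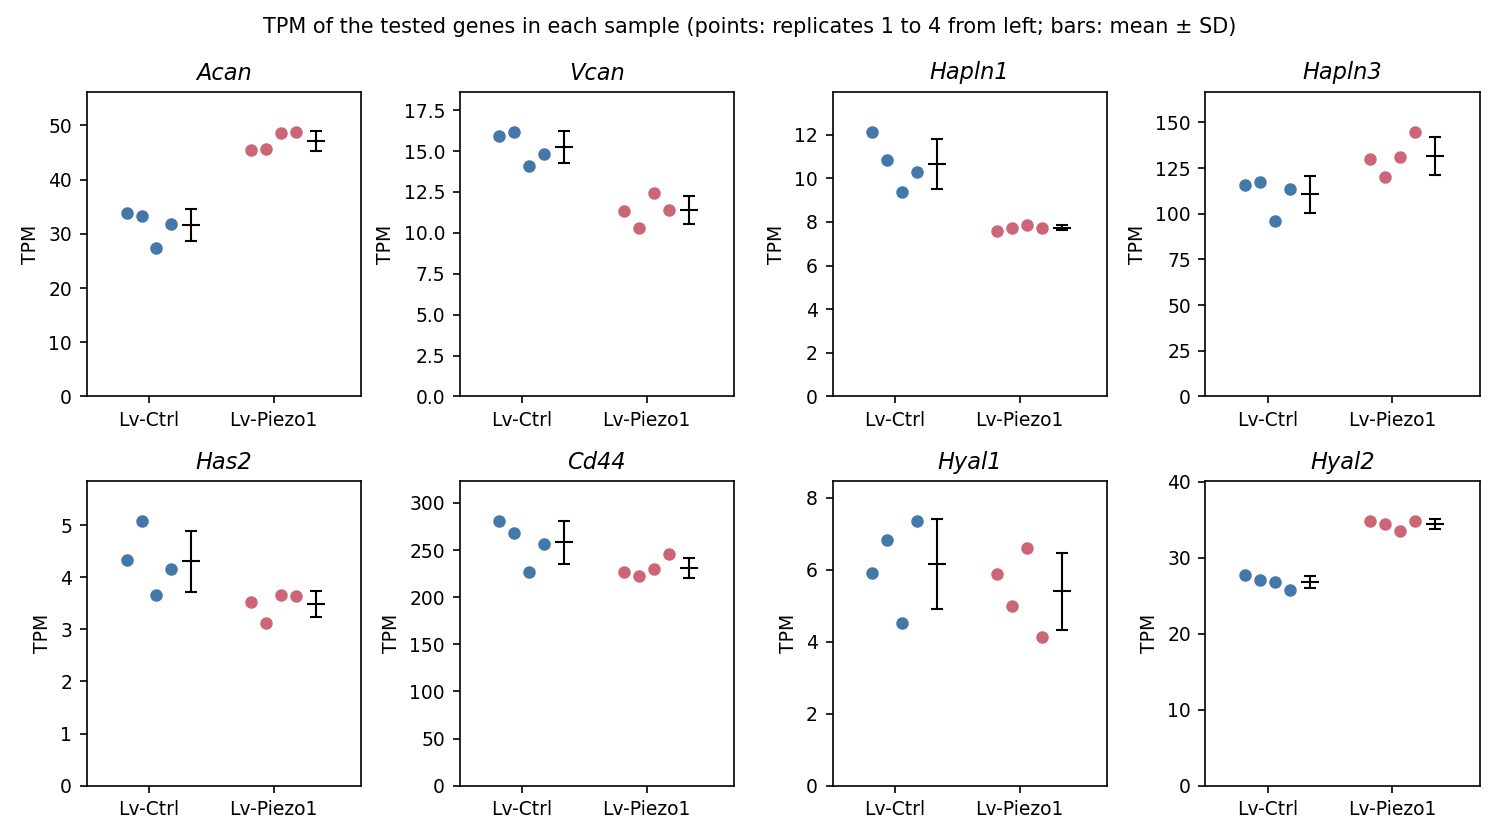
TPM of the 8 tested genes in each sample, with replicates 1 to 4 of each label as points from left to right and the mean ± SD as bars, on axes that start at 0. Acan spans 27.3 to 33.8 TPM under the label Lv-Ctrl and 45.5 to 48.9 TPM under Lv-Piezo1, while the points of Has2, Cd44 and Hyal1 overlap.

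Of the hyaluronan synthases, Has2 (ENSRNOG00000004854) was the only gene above the testing limit. Its values were 4.33, 5.08, 3.66 and 4.16 TPM in Lv-Ctrl replicates 1 to 4 and 3.53, 3.12, 3.66 and 3.64 TPM in those labelled Lv-Piezo1. Replicate 3 of both labels had the same listed value, and the other Lv-Ctrl values lay above every Lv-Piezo1 value. The log2 fold change was -0.24 (standard error 0.09), or -0.38 relative to the median of all tested genes, and its adjusted p of 0.057 from limma did not pass. It passed after median-ratio scaling (log2 fold change -0.37, adjusted p = 0.0039), after quantile normalization (-0.44, adjusted p = 9.4e-04), without a trend in the moderation (adjusted p = 0.041) and without replicate 3 labelled Lv-Ctrl (-0.30, adjusted p = 0.018). In the RefSeq gene table of assembly GRCr8, Has2 overlaps LOC108351495, and whether the authors counted by strand is not given in the sources used here, so reads of these 2 genes may not have been separated.

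Has1 (ENSRNOG00000010994) was listed at 0.36, 0.04, 0.08 and 0.08 TPM in Lv-Ctrl samples and at 0.16, 0.26, 0.04 and 0.09 TPM in those labelled Lv-Piezo1. Has3 (ENSRNOG00000059362) was listed at 0.25, 0.14, 0.26 and 0.14 TPM and at 0, 0.14, 0.14 and 0.16 TPM. Values this low lie near the rounding of the table, and the groups overlapped for both genes. An exact two-sided permutation test of the mean of log2(TPM + 1) over the 70 relabelings of the samples gave p = 1.0 for Has1 and p = 0.29 for Has3, where 0.029 is the smallest p that 4 samples against 4 allow. No difference was detectable for either gene at these levels.

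Cd44 (ENSRNOG00000006094) had the highest level of the 10 genes. It measured 281, 268, 227 and 257 TPM in Lv-Ctrl samples and 227, 222, 229.5 and 246 TPM in those labelled Lv-Piezo1. The Lv-Ctrl values spread over a wide range, and replicate 3 of that label lay among the Lv-Piezo1 values. The log2 fold change was -0.16 (standard error 0.06), or -0.30 relative to the median of all tested genes, with a limma adjusted p of 0.063 that did not pass. It passed after median-ratio scaling (-0.32, adjusted p = 2.9e-04), without replicate 3 labelled Lv-Ctrl (-0.22, adjusted p = 0.0037) and without replicate 4 labelled Lv-Piezo1 (-0.19, adjusted p = 0.048).

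Hyal2 (ENSRNOG00000031420), a hyaluronidase anchored at the cell surface, measured 27.7, 27.1, 26.8 and 25.7 TPM in Lv-Ctrl samples and 34.8, 34.4, 33.5 and 34.8 TPM in those labelled Lv-Piezo1. Both groups were tight and far apart. The mean rose by 28.2%, from 26.8 ± 0.819 to 34.4 ± 0.635 TPM (SD, n = 4 each). The log2 fold change of 0.35 (standard error 0.04, limma adjusted p = 4.5e-05) was 0.20 above the median of all tested genes, and 0.19 after median-ratio scaling (adjusted p = 0.0031).

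Hyal1 (ENSRNOG00000015858), the lysosomal hyaluronidase, stood at 5.91, 6.82, 4.51 and 7.35 TPM in Lv-Ctrl replicates 1 to 4. Under the label Lv-Piezo1 the values were 5.88, 4.99, 6.60 and 4.14 TPM. The groups overlapped throughout, and the log2 fold change of -0.16 (standard error 0.16, 95% interval -0.51 to 0.20, limma adjusted p = 0.42), or -0.30 relative to the median of all tested genes, did not pass. It ranged from -0.28 without replicate 3 labelled Lv-Ctrl to -0.06 without replicate 4 labelled Lv-Piezo1. Hyal1 overlaps Naa80 and Hyal3 in the RefSeq table, so its level is uncertain. The ratio of Hyal2 to Hyal1 was 4.52 ± 1.07 and 6.57 ± 1.43 (SD, n = 4 each) with overlapping groups.

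**Figure D2:**
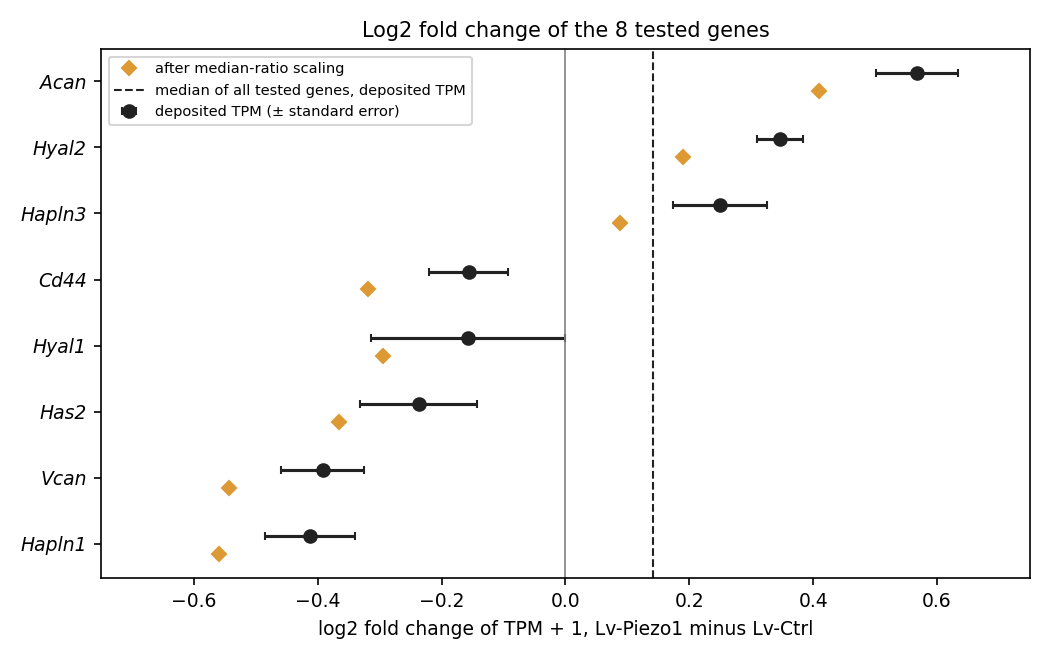
Log2 fold change of TPM + 1, Lv-Piezo1 minus Lv-Ctrl, of the 8 tested genes (circles with standard error, n = 4 each) and the same after median-ratio scaling (diamonds), with the median of all tested genes on the deposited values as a dashed line at 0.14. Acan stands at 0.57 and Hapln1 at -0.41, and scaling moves all 8 genes to the left without turning the direction of any.

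Ordered by mean TPM, the levels were Cd44, Hapln3, Acan, Hyal2, Vcan, Hapln1, Hyal1 and Has2 in both groups, followed by Has3 and Has1 under the label Lv-Ctrl and by Has1 and Has3 under Lv-Piezo1. In the samples labelled Lv-Ctrl the ranges of Acan and Hyal2, of Hyal1 and Has2, and of Has3 and Has1 overlapped, so their order was within the spread. In those labelled Lv-Piezo1 only Has1 and Has3 overlapped among neighbours in the order. The summed level of the 10 genes was 464 ± 38.9 and 472 ± 22.1 TPM (SD, n = 4 each), most of it Cd44 and Hapln3. Replicate 3 labelled Lv-Ctrl was the lowest sample of its label for 7 of the 8 tested genes, all but Hyal2.

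The genes whose profile over the 8 samples was most like that of Acan, by Euclidean distance between log2(TPM + 1) values centred on the gene's mean among 9060 genes with a symbol and at least 5 TPM on average, were Sun1 (0.0634), Trim56 (0.0741) and Fnbp4 (0.0746). Sun1 went from 27.7 ± 3.00 to 41.3 ± 1.02 TPM. Closest to Vcan were Angpt4 (0.0916), Usp11 (0.112) and Hdgfl3 (0.140), and Hdgfl3 went from 15.3 ± 0.794 to 11.5 ± 0.804 TPM (SD, n = 4 each). Distances were larger for Vcan than for Acan.

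The wider pathway held larger changes than the 10 genes. Of 58 other genes listed by role, 57 had a row, 39 were tested and 18 lay below the limit, while Itih5 was not matched. Of the 39 tested, 8 passed both thresholds, 5 higher and 3 lower, and 29 passed the adjusted p alone, 21 higher and 8 lower. Over all tested genes the shares were 7.67% past both thresholds and 58.2% past the adjusted p, 41.9% higher and 16.3% lower. The pathway genes had a median log2 fold change of 0.18 beside 0.14 for all tested genes. After median-ratio scaling 6 passed both thresholds, 3 higher and 3 lower, beside 982 of all 13103 tested genes (514 higher and 468 lower). With that scaling 28 passed the adjusted p alone, 16 higher and 12 lower. Over all tested genes the scaled share was 55.8% (27.9% higher and 27.9% lower). The scaled median of the pathway genes was 0.03.

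Extracellular partners that bind lecticans showed the widest span. Fibulin-2 (Fbln2), a ligand of versican and aggrecan, measured 3.56, 3.77, 3.18 and 2.81 TPM in Lv-Ctrl samples and 52.7, 54.5, 55.4 and 54.4 TPM in those labelled Lv-Piezo1. Fibulin-1 (Fbln1), which binds the same C-type lectin domains, measured 344, 349.9, 316 and 332 TPM and then 85.3, 81.0, 85.4 and 86.7 TPM. The log2 fold changes were 3.68 (standard error 0.07, limma adjusted p = 1.0e-09) and -1.97 (standard error 0.04, limma adjusted p = 1.5e-09), with no overlap for either gene. Their ratio, Fbln1 to Fbln2, added after the values were seen, was 102 ± 11.3 and 1.56 ± 0.0587 (SD, n = 4 each). Tenascin-C (Tnc), a further lectican ligand, rose from 238 ± 24.5 to 519.6 ± 27.3 TPM (log2 fold change 1.12, adjusted p = 1.9e-06), and 0.96 after median-ratio scaling. Of the 4 tested genes of this role 3 passed the adjusted p, 2 higher and 1 lower, beside 58.2% of all tested genes (41.9% higher and 16.3% lower). Fbn1 did not pass (15.6 ± 2.23 and 18.6 ± 1.32 TPM, adjusted p = 0.058) but did without replicate 1 labelled Lv-Ctrl (log2 fold change 0.30, adjusted p = 0.035).

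Among the other genes of hyaluronan degradation, Cemip, a hyaluronan-binding protein needed for breakdown of the polymer by fibroblasts, changed most. Its level was 474, 473, 289 and 409 TPM in Lv-Ctrl replicates 1 to 4 and 60.3, 56.3, 66.1 and 79.3 TPM in those labelled Lv-Piezo1. Even the low Lv-Ctrl replicate 3 lay far above every Lv-Piezo1 value. The log2 fold change was -2.62 (standard error 0.16, limma adjusted p = 1.6e-06), and the Lv-Ctrl mean of 411 ± 86.8 TPM was 6.28 times the Lv-Piezo1 mean of 65.5 ± 10.0 TPM (SD, n = 4 each). The ratio of Cemip to Hyal2, added after the values were seen, went from 15.3 ± 3.10 to 1.91 ± 0.286. Its relative Cemip2 measured 5.73 ± 0.699 and 4.90 ± 0.628 TPM and did not pass (adjusted p = 0.15), but passed after median-ratio scaling (log2 fold change -0.33, adjusted p = 0.0095), after quantile normalization (-0.40, adjusted p = 0.0018) and without replicate 3 labelled Lv-Ctrl (-0.26, adjusted p = 0.035).

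Among further genes of this role, Hexa takes part in the lysosomal breakdown of sugar chains. It is the most abundant gene of this role only by the mean over all 8 samples. Its level went from 243 ± 5.91 to 256 ± 2.60 TPM, a log2 fold change of 0.07 (limma adjusted p = 0.043). The change turned to -0.09 after median-ratio scaling (adjusted p = 0.12). Hexa also no longer passed on leaving out any sample but replicate 3 labelled Lv-Ctrl. Hyal3 (10.96 ± 1.47 and 11.7 ± 1.41 TPM) and Gusb (30.8 ± 1.36 and 29.2 ± 0.806 TPM) did not pass, but Gusb passed after median-ratio scaling (log2 fold change -0.23, adjusted p = 0.0014), after quantile normalization (-0.20, adjusted p = 0.0029) and without replicate 3 labelled Lv-Ctrl (adjusted p = 0.043). Hyal4 and Spam1 were listed at 0 in all samples.

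Genes that supply the sugar nucleotides for hyaluronan mostly rose on the deposited values. Of 8 tested, 6 were higher and 1 lower at the adjusted p, none past both thresholds, with a median log2 fold change of 0.25, beside 41.9% higher and 16.3% lower over all tested genes. After median-ratio scaling 4 were higher and 2 lower, with a median of 0.09, beside 27.9% higher and 27.9% lower over all tested genes. Gnpnat1 newly passed as lower there (-0.17, adjusted p = 0.011). Ugdh, which makes UDP-glucuronic acid, rose from 39.2 ± 2.38 to 53.2 ± 3.05 TPM, and Gpi, the most abundant gene of this role, from 169 ± 1.78 to 259.9 ± 2.61 TPM (log2 fold changes 0.43 and 0.62). Both kept this direction after scaling, at 0.27 and 0.46, whereas Pgm3 (0.18) and Uap1 (0.16) went to 0.03 and -0.0024 and no longer passed. Pgm3 also did not pass on leaving out any sample but replicates 1 and 3 labelled Lv-Ctrl. The glutamine:fructose-6-phosphate amidotransferases of the hexosamine pathway moved in opposite directions. Gfpt1 fell from 38.7 ± 5.01 to 27.8 ± 2.05 TPM and Gfpt2 rose from 1.57 ± 0.0998 to 3.17 ± 0.478 TPM (SD, n = 4 each, limma adjusted p = 0.0028 and 4.2e-04).

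Of the other proteins that bind hyaluronan, 7 of 16 matched genes were tested, and at the adjusted p 4 were higher and 1 lower, with a median log2 fold change of 0.34, near the shares of all tested genes (41.9% higher and 16.3% lower). After median-ratio scaling 3 were higher and 1 lower, with a median of 0.19, beside 27.9% higher and 27.9% lower over all tested genes. Hmmr, a hyaluronan-binding protein of the mitotic spindle and cell surface, rose from 4.43 ± 0.514 to 8.47 ± 1.08 TPM, and the receptor Layn from 10.8 ± 0.855 to 17.6 ± 1.69 TPM. Tnfaip6, which transfers protein chains onto hyaluronan, rose from 24.4 ± 1.75 to 36.1 ± 3.19 TPM, and Ptx3, its partner in matrix assembly and the most abundant gene of this role, fell from 80.9 ± 5.03 to 63.2 ± 2.27 TPM. These 4 genes kept their direction and call after median-ratio scaling, whereas Habp4 (log2 fold change 0.34) did not pass there (0.19, adjusted p = 0.19). Tlr2 (4.83 ± 0.437 and 5.42 ± 0.227 TPM) and Tlr4 (3.27 ± 0.432 and 3.25 ± 0.339 TPM) did not pass. The endothelial receptors Lyve1 and Stab2 stayed at or below 0.03 TPM in all samples.

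The proteases that cleave aggrecan and versican changed in both directions. Adamts1, the most abundant, measured 1052, 1061, 763 and 981 TPM in Lv-Ctrl samples and 618, 599, 661 and 728 TPM in those labelled Lv-Piezo1, a log2 fold change of -0.56 (standard error 0.11, limma adjusted p = 0.0017). Replicate 3 of Lv-Ctrl, again the low sample, stayed above the highest Lv-Piezo1 value. Adamts8 fell from 2.98 ± 0.332 to 0.495 ± 0.119 TPM (log2 fold change -1.41, adjusted p = 7.4e-06), and Adamts15 from 3.90 ± 0.418 to 2.85 ± 0.356 TPM (adjusted p = 0.013, and 0.051 with the replicate number as a block). Adamts4, an aggrecanase, rose from 11.4 ± 0.841 to 18.1 ± 0.996 TPM, and its inhibitor Timp3 rose from 7.11 ± 1.09 to 13.7 ± 0.777 TPM. Adamts5, the other main aggrecanase, measured 53.4 ± 9.99 and 44.8 ± 4.35 TPM and did not pass (adjusted p = 0.16), but passed after median-ratio scaling (log2 fold change -0.39, adjusted p = 0.015), after quantile normalization (adjusted p = 0.043) and without replicate 3 labelled Lv-Ctrl (-0.37, adjusted p = 0.0061, against -0.23 with it).

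Genes listed as partners of Cd44 at the membrane form a further role. Of its 5 tested genes 4 were higher at the adjusted p, beside 41.9% of all tested genes, and 3 after median-ratio scaling, beside 27.9%. The median log2 fold change was 0.73, and Rdx did not pass (20.2 ± 2.08 and 22.7 ± 1.17 TPM, adjusted p = 0.084) but did without replicate 2 labelled Lv-Ctrl (0.21, adjusted p = 0.041). Moesin (Msn) went from 187 ± 23.3 to 411 ± 29.7 TPM (log2 fold change 1.14, limma adjusted p = 7.6e-06, and 0.98 after median-ratio scaling) and ezrin (Ezr) from 20.8 ± 1.06 to 37.3 ± 0.598 TPM. Ank3 rose from 3.33 ± 0.548 to 6.18 ± 0.765 TPM, and Nf2, with a log2 fold change of 0.23, did not pass after median-ratio scaling (0.08, adjusted p = 0.20).

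The brain lecticans and their link proteins were nearly silent except for Hapln4. Bcan was listed at 0 in all samples, Ncan at 0 in all but replicate 1 labelled Lv-Piezo1 (0.02 TPM), and Hapln2 at 0.68 TPM or less. Hapln4 measured 2.66, 3.27, 2.62 and 2.18 TPM in Lv-Ctrl samples and 12.4, 12.9, 11.8 and 13.0 TPM in those labelled Lv-Piezo1, a log2 fold change of 1.88 (standard error 0.09, limma adjusted p = 3.0e-07). Of the SOX factors that drive Acan in cartilage, Sox9 measured 3.89 ± 0.428 and 3.85 ± 0.259 TPM (log2 fold change -0.01, 95% interval -0.20 to 0.19, limma adjusted p = 0.94), and after quantile normalization it passed at -0.23 (adjusted p = 0.033). Sox5 fell from 3.54 ± 0.338 to 2.15 ± 0.365 TPM (adjusted p = 0.0028), and Sox6 was at 0.73 TPM or less in all samples. On the deposited values Acan rose and Sox9 did not pass, and a link between them was not tested.

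**Figure D3:**
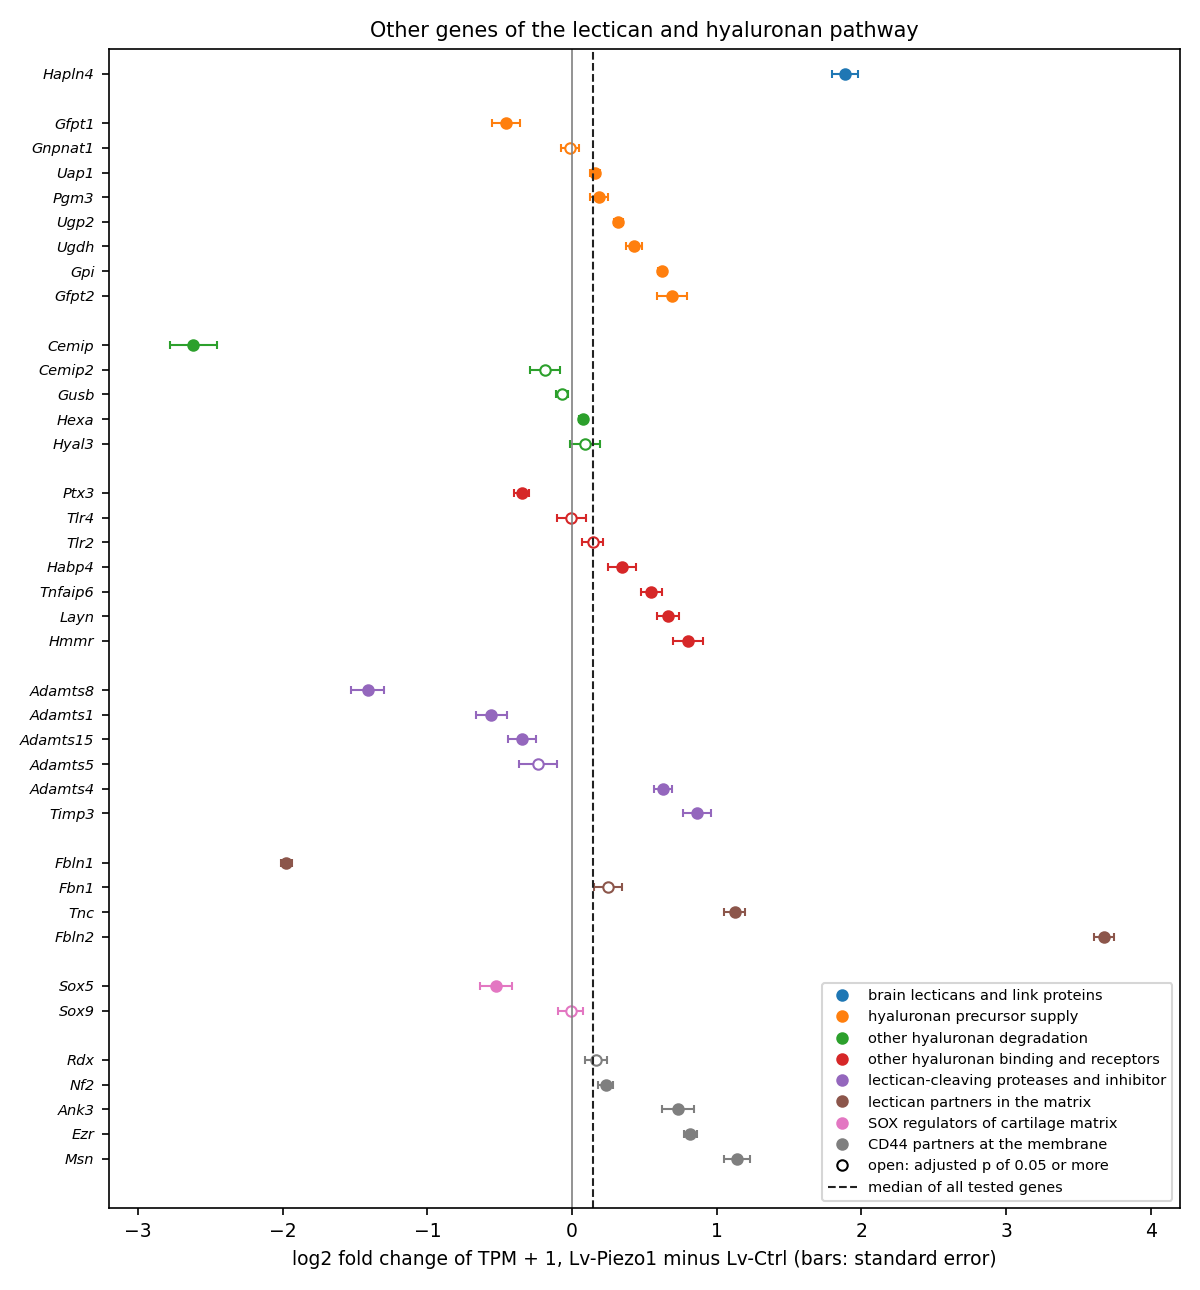
Log2 fold change of TPM + 1, Lv-Piezo1 minus Lv-Ctrl, with its standard error (n = 4 each) for 38 of the 39 tested genes of the other roles, coloured by role, with filled points where the adjusted p passed and 1 gene that passed not drawn. Fbln2 at 3.68 and Cemip at -2.62 mark the ends, and the dashed line is the median of all tested genes at 0.14, which scaling would move to -0.0046.

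Some markers of cell types also differed between the labels. Annulus, tendon and fibroblast markers summed to 6468, 6641, 5888 and 6367 TPM in Lv-Ctrl samples and 10854, 10562, 10874 and 11291 TPM in those labelled Lv-Piezo1, with Col1a1 the most abundant. Of its 9 tested genes 6 were higher and 2, Fmod and Mkx, lower at the adjusted p, beside 41.9% and 16.3% of all tested genes. Lum newly passed as lower after median-ratio scaling (log2 fold change -0.12, adjusted p = 0.020), where 27.9% of all tested genes were lower. The tendon marker Tnmd was at 0 in all but replicate 4 labelled Lv-Piezo1 (0.08 TPM). Smooth muscle and pericyte markers summed to 451, 442, 444 and 442 TPM and then to 4651, 4722, 4715 and 4551 TPM, led by Tagln. All 8 tested genes were higher at the adjusted p, beside 41.9% of all tested genes, and 6 were higher past both thresholds, beside 4.91%. Pdgfrb (log2 fold change 0.15) went to -0.01 after median-ratio scaling (adjusted p = 0.69). Rgs5, a pericyte marker, stayed at 0.35 TPM or less. The part of these shifts in the aggrecan, versican and hyaluronan results was not tested.

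Markers of other cell types had lower sums. Cartilage markers, led by Sox9, summed to 7.55, 7.28, 7.47 and 6.13 TPM with the label Lv-Ctrl and 8.37, 9.0, 9.37 and 9.29 TPM with Lv-Piezo1. Of these 9 genes 2 were tested and 1, Col9a2, was higher (1.73 ± 0.182 and 3.38 ± 0.388 TPM). For this and the following lists, 41.9% of all tested genes were higher at the adjusted p. Col2a1, the collagen that accompanies aggrecan in cartilage, was at 0.29 to 0.59 TPM and Matn1 at 0. Nucleus pulposus and notochord markers summed to 5.78, 6.68, 6.52 and 6.42 TPM and to 26.7, 22.1, 24.8 and 26.7 TPM. Of the 4 matched, Cd24, the most abundant, was higher (3.79 ± 0.207 and 21.9 ± 1.91 TPM), Krt8 did not pass and Tbxt was at 0, while Krt19 and Car12 were not matched. The macrophage and leukocyte list summed to 22.9, 21.5, 22.5 and 21.9 TPM and to 41.7, 39.1, 36.9 and 36.02 TPM, with Cd14 the most abundant. Both tested genes were higher, Cd68 (0.955 ± 0.899 and 12.3 ± 0.901 TPM, log2 fold change 2.88) and Cd14 (20.9 ± 0.324 and 25.8 ± 1.91 TPM), the latter no longer after median-ratio scaling (log2 fold change 0.13, adjusted p = 0.12) or quantile normalization (adjusted p = 0.078), and Adgre1, Cd163, C1qa, Tyrobp and Laptm5 were at 0 in all samples. None of the 6 matched endothelial markers was tested, and Cldn5 was not matched. Their sum, led by Vwf, was 0.54, 0.59, 0.34 and 0.57 TPM and then 0.62, 0.43, 0.44 and 0.39 TPM, with Emcn at 0. The part of these lists in the results was not tested.

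In the RefSeq gene order of assembly GRCr8, lectican and link protein genes lie side by side with no gene between them, a known arrangement of these families. Acan neighbours Hapln3 on chromosome 1, and both rose on the deposited values, Hapln3 no longer after median-ratio scaling. Vcan neighbours Hapln1 on chromosome 2, and both fell. On chromosome 8 Hyal2 neighbours Hyal1, of which Hyal2 alone passed the test. Of the brain pairs, Hapln4 rose beside a silent Ncan, and Bcan and Hapln2 were below the testing limit.

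The sequences before the starts of 4 of the 5 genes that passed the adjusted p are printed because Vcan and its neighbour Hapln1 both fell while Acan and Hyal2 rose. RefSeq promoter entries of GRCr8 were found for 7 of the 10 genes, and Hapln3, Has2 and Has3 had no entry. Each line gives the 250 bases upstream of the start, 5′ to 3′ on the gene's strand, with motif matches in capitals. The windows are chr1:142390701-142390950 on the plus strand for Acan, chr2:22366717-22366966 on the plus strand for Hapln1, chr2:22595956-22596205 on the minus strand for Vcan and chr8:117121552-117121801 on the plus strand for Hyal2.
Acan: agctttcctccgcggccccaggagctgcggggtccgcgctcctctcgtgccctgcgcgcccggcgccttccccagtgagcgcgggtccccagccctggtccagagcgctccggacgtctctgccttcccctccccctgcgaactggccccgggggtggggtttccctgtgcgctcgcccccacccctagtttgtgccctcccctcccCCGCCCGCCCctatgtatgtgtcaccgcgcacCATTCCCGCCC
Vcan: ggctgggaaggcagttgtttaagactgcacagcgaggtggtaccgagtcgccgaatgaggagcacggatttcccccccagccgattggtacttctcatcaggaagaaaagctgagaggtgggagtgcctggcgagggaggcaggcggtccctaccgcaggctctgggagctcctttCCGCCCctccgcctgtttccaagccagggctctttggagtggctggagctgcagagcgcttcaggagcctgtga
Hapln1: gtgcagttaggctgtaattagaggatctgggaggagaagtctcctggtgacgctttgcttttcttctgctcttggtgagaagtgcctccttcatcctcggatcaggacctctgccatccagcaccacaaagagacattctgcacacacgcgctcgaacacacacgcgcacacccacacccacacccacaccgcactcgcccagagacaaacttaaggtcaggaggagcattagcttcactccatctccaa
Hyal2: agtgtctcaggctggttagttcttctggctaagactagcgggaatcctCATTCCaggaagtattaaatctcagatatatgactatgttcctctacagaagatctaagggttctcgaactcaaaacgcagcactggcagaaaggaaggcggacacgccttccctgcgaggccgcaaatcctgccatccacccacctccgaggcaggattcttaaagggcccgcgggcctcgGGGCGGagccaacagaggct

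Of 5 motifs searched on both strands, the GC box (GGGCGG) was present in 30.5% of 33469 promoters of this length, the TATA box (TATAAA) in 12.9%, the AP-1 site (TGACTCA) in 4.05%, the TEAD site (GGAATG) in 12.1% and the SOX site (AACAAT) in 10.3%. The Acan window held 3 GC boxes, of which 2 overlap each other and 1 shares its first base with the last of a TEAD match. The printed Vcan window held 1 GC box and Hapln1 none of the 5 motifs. A further Vcan entry, chr2:22595858-22596107 on the minus strand, overlaps the printed window and held the same GC box. Hyal2 held 1 TEAD match and 1 GC box. Bases G and C made up 73.6% of the Acan window, 61.6% of that of Vcan, 54.0% of those of Hapln1 and Hyal2, and 51.2% in the median promoter. A match is a run of letters, not a bound site.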

How the data were processed

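AFCs under CMS with either vector, Lv-Ctrl or Lv-Piezo1, were compared, 4 samples each. By the authors' account reads were cleaned, HISAT2 aligned them to the genome of the rat, and StringTie assembled transcripts. What was deposited is TPM to 2 decimals. The study's methods describe FPKM, and how the TPM were made is not given in the sources used here. The submitters' processing notes list DESeq2 and mm10, a mouse build, while the rows carry rat Ensembl identifiers, so the build and annotation behind the TPM are uncertain. Count models do not suit TPM, so none was used. The authors' mean columns were not used.

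Genes with a mean of at least 1 TPM over the 8 samples were fitted as log2(TPM + 1) with limma 3.58.1 in R 4.3.3 (group only, empirical Bayes with a trend, Benjamini-Hochberg adjustment over all tested genes), after a test on simulated data. All p-values are two-sided. Thresholds were an adjusted p of 0.05 and, where stated, a log2 fold change of 1. Genes below the limit had an exact permutation test. Named genes were the 10 genes, Piezo1, per role the genes past both thresholds (up to 5 rises and 5 falls) and the most abundant gene, and 3 genes most like Acan and Vcan. The most abundant gene of a role was taken by its mean TPM over the 8 samples. Other genes of a role named in the text were chosen after their values were seen. Ratios needed 0.5 TPM in every sample, so the share of Has2 among the synthases was not computed. The members and lists were chosen with earlier results of these data known. Correlations between samples of log2(TPM + 1) across genes were 0.973 to 0.983 within and 0.939 to 0.945 between groups, and at least 17402 rows differed between any 2 samples.

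Alternatives were a pseudocount of 0.1, no filter, a mean of at least 5 TPM, median-ratio scaling, quantile normalization, no trend, the replicate number as a block, and leaving out each sample. Those for single genes of the wider pathway were added after the data were seen, while those for the counts of pathway genes that passed were planned.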

Additional observations from a re-analysis of the deposited data

Results flagged for a closer look

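In 64 groups of 4 values checked (the 10 genes, Piezo1, the named pathway genes and the ratios), 2 held a sample far from the others, where chance flags about 1 in 20 groups. Has1 was 0.36 TPM in replicate 1 labelled Lv-Ctrl, beside a group median of 0.08 TPM. Has3 was listed at 0 in replicate 1 labelled Lv-Piezo1, beside a group median of 0.14 TPM. Both genes lie below the testing limit, and what set these values apart was not tested.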

How the results depend on the processing

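Over 119 alternative values of the 8 tested genes, 110 kept direction and side of the threshold, 2 no longer passed (both Hapln3), 7 newly passed (4 of Has2 and 3 of Cd44) and 0 turned direction. Over these alternatives the limma adjusted p ran from 0.014 to 0.21 for Hapln3, from 9.4e-04 to 0.14 for Has2 and from 2.9e-04 to 0.16 for Cd44, and the causes were not tested. Past both thresholds 0 of the 8 genes stood under every alternative run, and 5 to 7 passed the adjusted p. Of the other pathway genes 6 to 8 passed both thresholds and 24 to 32 the adjusted p, and of 193 alternative values of the 13 pathway genes chosen by the rule for named genes 176 kept direction and side of the threshold, 10 no longer passed (all Hexa, adjusted p from 0.012 to 0.12), 1 newly passed (Sox9) and 6 turned direction. Among pathway genes outside that rule, Pgm3, Uap1, Habp4 and Nf2 no longer passed after median-ratio scaling, and Gnpnat1, Cemip2, Gusb and Adamts5 newly passed. Has2, Sox9 and Adamts8 have no value at a mean of at least 5 TPM.

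Genes past both thresholds numbered 1005, and 628 with a mean of at least 5 TPM, where fewer genes were tested, 1438 with a pseudocount of 0.1, and 1006 to 1030 on leaving out each sample. Values near 0 turned direction. Hexa went from 0.07 to -0.0885 with median-ratio scaling, Sox9 from -0.01 to between -0.0701 and 0.0316 on leaving out each sample, and the log2 difference of Has1 from 0.0016 to -0.015 with median-ratio scaling and to between -0.0489 and 0.0892 on leaving out each sample. Sox9 newly passed with quantile normalization, with adjusted p from 0.033 to 0.997 over its alternatives. The causes were not tested.

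With the replicate number as a block, 1004 genes, 0 of the 8 genes and 8 other pathway genes passed both thresholds, and 5 and 26 passed the adjusted p. Deviations of same-numbered samples correlated by -0.058 to -0.012, and no sample correlated best with its own number. By the study's methods cells of one isolation received different treatments and count as one repeat, so both vectors may share isolations, but which samples do is not given in the sources used here. Pgm3, Adamts15 and Hexa no longer passed with the block (adjusted p = 0.052, 0.051 and 0.11). Unknown depth limits the low values of Has1 and Has3.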
